A study of Homo sapiens with 6 samples.

Results

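The prostaglandin genes examined were 10 genes that make, carry out or end prostaglandin E2 and prostacyclin signalling: PTGS1, PTGS2, PTGES, PTGES2, PTGES3, PTGER2, PTGER4, HPGD, PLA2G4A and PTGIS. Rows were matched by symbol, from a list of genes drawn up with earlier results of these data known. The 10 symbols matched 11 of the 24108 rows of the deposited expression table, because PTGES3 has 2 rows. The samples were total RNA of MDA-MB-231, a triple-negative breast cancer line of basal subtype, from 3 samples with a hairpin against the transcription factor ZNF148 (written shZnf148 in the labels and shZNF148 here) and from 3 samples with a hairpin against luciferase (shControl in the labels, shCtr here). Both groups received lentivirus for 48 h and then 24 h of puromycin at 0.5 µg/ml, so virus and drug are common to controls and knockdown. Each group rests on 1 hairpin as far as the labels tell, so an effect of ZNF148 loss and any other effect of that hairpin cannot be told apart. The labels do not say that the 3 samples of a group came from separate cultures, and the p-values below therefore measure only the spread between these samples, which may be technical.

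Prostaglandins begin with arachidonic acid, which phospholipases such as cytosolic phospholipase A2 (PLA2G4A) cut out of membranes. The cyclooxygenases, constitutive PTGS1 and inducible PTGS2, turn it into prostaglandin H2, which the prostaglandin E synthases (PTGES, PTGES2 and PTGES3) convert to prostaglandin E2 and PTGIS converts to prostacyclin. Prostaglandin E2 raises cyclic AMP through its receptors EP2 (PTGER2) and EP4 (PTGER4), and HPGD begins its breakdown. In breast cancer this pathway is known for PTGS2, whose product is linked to growth, invasion and inflammation. ZNF148, also called ZBP-89, is a zinc-finger protein that binds GC-rich promoter elements.

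The values are FPKM, fragments scaled to transcript length and to sequencing depth, so levels of different genes can be set side by side per length. Tests were made on log2(FPKM + 1) for the 11777 rows that averaged 1 FPKM or more over the samples, and a row was called at a Benjamini-Hochberg adjusted p under 0.05 from limma together with a change over 1.5-fold. The hairpin's target, ZNF148, was listed at 3.72, 4.36 and 4.30 FPKM in shCtr replicates 1 to 3 and at 0.914, 0.282 and 0.834 FPKM in shZNF148 replicates 1 to 3. The groups were far apart, with the shZNF148 mean at 16.4% of the shCtr mean (log2 fold change -1.63 ± 0.18 SE, limma adjusted p = 0.00990). That adjusted p rose to 0.0673 without shCtr replicate 1 and to 0.0653 without shCtr replicate 3. Of the 11777 rows 647 were called, a number that dropped to 29 and 22 without those 2 samples, to 201 without shCtr replicate 2 and to 270 without shZNF148 replicate 1. Relative depth, read from the steps between low values, ran from 0.806 to 1.13 of that of shCtr replicate 1. Mesenchymal markers of the line were high, with vimentin (VIM) at 1507 to 1842 FPKM and CD44 at 402 to 606 FPKM. Of the luminal markers, estrogen receptor (ESR1) was listed at 0 in all 6 samples. FOXA1, PGR and CDH1 were at most 0.0345, 0.0830 and 0.491 FPKM, whereas GATA3 (7.53 to 9.24 FPKM) and EPCAM (mean 9.81 FPKM) were present. The leukocyte marker CD14 ran from 0.470 to 2.01 FPKM. The other leukocyte markers and the endothelial markers were at most 0.131 FPKM. The joined row of ERBB2 and MIR4728 was at 20.1, 126 and 20.1 FPKM in shCtr replicates 1 to 3 and at 24.8, 125 and 21.9 FPKM in shZNF148 replicates 1 to 3, so replicate 2 of both groups was high. All 6 markers listed for the line were lower in shZNF148 (median log2 fold change -0.26, beside 0.0061 for all tested rows). Of them, CD44, KRT18 and AXL passed on adjusted p but not on size (limma adjusted p = 0.0185, 0.0286 and 0.0364). The fibroblast markers DCN and LUM reached 2.82 and 0.323 FPKM in shCtr replicate 2, and in the other 5 samples DCN was listed at 0 and LUM was at most 0.0586 FPKM, while the other fibroblast or smooth muscle markers, ACTA2 (11.7 to 24.6 FPKM) and PDGFRB (2.00 to 6.67 FPKM), were in every sample.

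None of the prostaglandin genes was called. Of the 10 genes, 5 (6 rows) reached the filter, all of them with a mean above 1 FPKM in both groups, and the other 5 (PTGS2, PTGER2, HPGD, PLA2G4A and PTGIS) did not. Among the 6 rows 0 were called by limma, beside 5.49% of all tested rows (1.83% called higher and 3.66% called lower in shZNF148). An adjusted p under 0.05 alone was reached by 0 of the 6, beside 13.6% of all rows, and an unadjusted p under 0.05 by 2 of the 6, PTGES and PTGES2, beside 33.8%. The groups did not overlap in 3 of the 6 rows (PTGS1, PTGES and PTGES2, each lower in shZNF148), beside 41.0% of all rows, so these shares do not set the prostaglandin genes apart from the table as a whole.

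**Figure D1:**
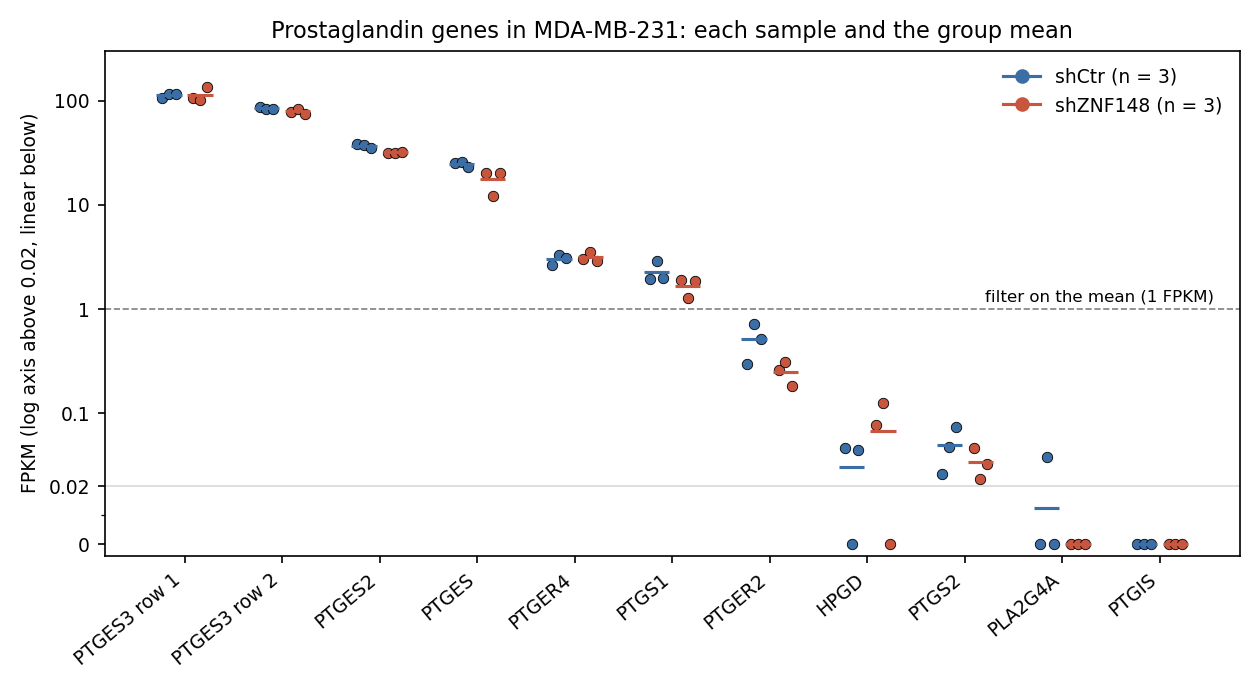
FPKM of the 11 rows of the 10 prostaglandin genes in each of the 3 shCtr (blue) and 3 shZNF148 (red) samples, ordered by mean, on an axis that is logarithmic above 0.02 and linear below it. Points are samples and short lines are group means. PTGES3, PTGES2 and PTGES lie between 12.2 and 136 FPKM, PTGER4 and PTGS1 between 1.26 and 3.53 FPKM, and the other genes at 0.724 FPKM or less, down to 0.

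The levels spanned the pathway unevenly. Averaged over the 6 samples, the order was PTGES3 (rows at 113 and 81.5 FPKM), PTGES2 (34.4), PTGES (21.0), PTGER4 (3.06), PTGS1 (1.97), PTGER2 (0.382), HPGD (0.0491), PTGS2 (0.0418), PLA2G4A (0.00630) and PTGIS (0). Down to PTGES each row stood above the next in 6 of 6 samples with no overlap of their ranges. PTGER4 was above PTGS1 in 6 of 6 samples although the ranges overlap (2.62 to 3.53 against 1.26 to 2.86 FPKM), and PTGS1 and PTGER2 did not overlap. HPGD was above PTGS2 in only 3 of 6 samples, so the order of those 2 genes cannot be given, and PLA2G4A was above PTGIS in 1 sample. The synthases at the end of the route to prostaglandin E2 were thus listed at higher levels per length than the cyclooxygenases that supply them.

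At the head of the pathway, PLA2G4A (chr1:186828949-186988981 on GRCh38, plus strand, GENCODE release 44) was listed at 0 in 5 samples and at 0.0378 FPKM in shCtr replicate 2. That is the sample in which DCN and LUM, given above, were highest, and PTGS1, PTGER2 and PTGES were also highest in it. HPGD was listed at 0 there. Of the other fibroblast or smooth muscle markers, PDGFRB was at 5.41 FPKM there, the lowest of the controls. ACTA2 was at 22.9 FPKM there, below the 24.6 FPKM of shZNF148 replicate 2. A link between these markers and the prostaglandin genes was not tested. In RNA from a whole culture, fewer cells of a type and less RNA per cell cannot be told apart.

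PTGS2, the inducible cyclooxygenase, lies 148 kb from PLA2G4A on the minus strand at chr1:186671791-186680922. It was barely detected. Its FPKM values were 0.0261, 0.0480 and 0.0745 in shCtr replicates 1 to 3, and 0.0463, 0.0234 and 0.0324 in shZNF148 replicates 1 to 3. The groups overlapped, and the control samples held both the highest value and, with shZNF148 replicate 2, one of the lowest (means 0.0496 ± 0.0242 and 0.0340 ± 0.0115 FPKM, SD, n = 3, exact two-sided permutation test p = 0.4). After correction for relative depth these values were whole multiples, within 0.05, of the smallest among them: 1, 2 and 3 in shCtr and 2, 1 and 1 in shZNF148, or 6 against 4 summed over the groups. If the smallest step is 1 fragment, PTGS2 rests on so few fragments that a decrease or a moderate increase of it could not be detected at this depth. With every row above 0 in some sample included (16993 rows), its log2 fold change was -0.02 with a 95% interval from -0.10 to 0.06 and a limma adjusted p of 0.707. That interval is on the log2(FPKM + 1) scale, which flattens values this low, and does not limit the ratio.

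PTGS1, the constitutive cyclooxygenase (chr9:122370530-122395703, plus strand), was the main cyclooxygenase transcript. Its FPKM values were 1.95, 2.86 and 1.98 in shCtr replicates 1 to 3 and 1.91, 1.26 and 1.87 in shZNF148 replicates 1 to 3. All shZNF148 samples lay below all shCtr samples, by a narrow margin apart from the high shCtr replicate 2 and the low shZNF148 replicate 2. The means were 2.26 ± 0.519 and 1.68 ± 0.361 FPKM (SD, n = 3), 74.2% of control, and the difference did not pass (log2 fold change -0.28 ± 0.17 SE, 95% interval -0.68 to 0.11, limma adjusted p = 0.277). It was -0.15 without shCtr replicate 2 and -0.16 without shZNF148 replicate 2. Its size thus depended on each of those 2 samples. PTGS2 made up 1.32% to 3.63% of the summed cyclooxygenase FPKM, so the sum followed PTGS1 (log2 fold change -0.29, exact two-sided permutation p = 0.1, the smallest that 3 samples against 3 allow).

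The prostaglandin E synthases were abundant. PTGES, the inducible membrane-bound synthase that works with PTGS2, lies on the minus strand at chr9:129738331-129753042, 1.61 Mb from PTGES2 at chr9:128120693-128128462 on the same strand. PTGES2 is a second membrane-associated synthase, and PTGES3 (chr12:56663341-56688408, minus strand) is the cytosolic synthase also known as p23, a cochaperone of HSP90. To show the promoters of the 2 synthases with the lowest unadjusted p and of PTGS2, the gene hardly detected, the 250 bases before a RefSeq start (GRCh38.p14) are given, the one nearest the gene end in GENCODE where a gene has several, in the direction of transcription. Capitals mark CCCTCCC and GGGCGG on either strand, GC-rich words of the kind that zinc-finger proteins of this class bind. The windows are chr9:129753043-129753292 for PTGES, chr9:128128441-128128690 for PTGES2 and chr1:186680424-186680673 for PTGS2, all on the minus strand. The RefSeq start of PTGS2 is 499 bases inside the GENCODE end of the gene, so its window lies within the gene span given above.
PTGES: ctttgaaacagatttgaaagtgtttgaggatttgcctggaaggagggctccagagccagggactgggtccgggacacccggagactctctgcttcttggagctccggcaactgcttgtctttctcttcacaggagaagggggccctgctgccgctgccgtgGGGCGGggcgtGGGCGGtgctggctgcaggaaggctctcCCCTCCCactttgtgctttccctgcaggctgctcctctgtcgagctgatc
PTGES2: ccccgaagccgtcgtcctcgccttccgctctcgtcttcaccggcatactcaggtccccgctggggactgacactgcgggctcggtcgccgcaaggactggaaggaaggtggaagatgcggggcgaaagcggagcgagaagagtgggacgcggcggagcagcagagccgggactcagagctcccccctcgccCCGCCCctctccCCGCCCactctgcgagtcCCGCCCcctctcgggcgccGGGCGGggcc
PTGS2: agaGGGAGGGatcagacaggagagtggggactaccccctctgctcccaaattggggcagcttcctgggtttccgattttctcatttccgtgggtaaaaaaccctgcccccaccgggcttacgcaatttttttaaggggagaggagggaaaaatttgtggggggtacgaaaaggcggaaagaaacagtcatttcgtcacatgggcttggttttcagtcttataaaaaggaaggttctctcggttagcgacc

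The PTGES window held 1 CCCTCCC and 2 GGGCGG, the PTGES2 window 0 and 4, and the PTGS2 window 1 and 0, with no overlap between the words. Of the 9 prostaglandin genes with a promoter in the table used, 3 held CCCTCCC and 6 held GGGCGG in these 250 bases. RefSeq gives more than 1 start for PTGES2, PTGS1 and HPGD, and counted over any start of a gene the numbers were 5 and 7 of 9, with CCCTCCC before another start of PTGES2 and of PTGS1. Over 35116 promoter windows of this length the shares were 24.7% and 42.6%, so both words are common. Those shares are per window and cannot be set beside the counts over any start, where a gene with several windows can match more often. The PTGES2 window was 72.4% G and C, the PTGES window 61.2% and the PTGS2 window 50.4%. A match is a description of the letters and not a binding site.

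PTGES was listed at 25.0, 25.6 and 22.9 FPKM in shCtr replicates 1 to 3 and at 20.4, 12.2 and 20.04 FPKM in shZNF148 replicates 1 to 3. All 3 shZNF148 samples were below all 3 controls, and shZNF148 replicate 2 was by far the lowest. That sample also had the lowest ZNF148, but a relation would rest on 1 sample and was not tested. The means were 24.5 ± 1.43 and 17.5 ± 4.64 FPKM (SD, n = 3), 71.5% of control, the lowest share among the 6 tested prostaglandin rows. The difference did not pass the test (log2 fold change -0.49 ± 0.19 SE, 95% interval -0.94 to -0.04, limma adjusted p = 0.123). Without shZNF148 replicate 2 it was -0.26, with an adjusted p of 0.0579, so that sample carries much of the size.

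PTGES2 was listed at 38.1, 37.6 and 35.1 FPKM in shCtr replicates 1 to 3 and at 31.6, 31.6 and 32.3 FPKM in shZNF148 replicates 1 to 3. The 3 shZNF148 samples were close to each other and all below the controls. The means were 37.0 ± 1.60 and 31.8 ± 0.389 FPKM (SD, n = 3), 86.2% of control, and the difference missed the threshold (log2 fold change -0.21 ± 0.06 SE, 95% interval -0.35 to -0.06, limma adjusted p = 0.0646). With samples weighted by limma's array weights the adjusted p was 0.0316, still under the 1.5-fold limit at -0.20. In the ratio of PTGES to PTGES2, the shCtr samples lay at 0.656, 0.680 and 0.652. The shZNF148 samples lay at 0.644, 0.385 and 0.621, so only replicate 2 stood well below the controls (exact two-sided permutation p = 0.1, the smallest possible).

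PTGES3 had the highest levels, in 2 rows whose transcripts the table does not name. The first row was at 107, 116 and 116 FPKM in shCtr replicates 1 to 3 and at 106, 100.3 and 136 FPKM in shZNF148 replicates 1 to 3, with group means of 113 and 114 FPKM (log2 fold change 0.0018, 95% interval -0.28 to 0.28, limma adjusted p = 0.992). Its sign turned with the scaling and with single samples left out. The second row was at 87.4, 83.6 and 82.6 FPKM in shCtr replicates 1 to 3, and at 77.9, 83.3 and 74.3 FPKM in shZNF148 replicates 1 to 3. Its groups overlapped, and its log2 fold change of -0.11 (95% interval -0.26 to 0.05) did not pass (limma adjusted p = 0.287). Both intervals lie within 1.5-fold in either direction on this scale. GENCODE lists 5 processed pseudogenes of PTGES3, and how the authors' counting shared reads between them and the gene was not tested.

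**Figure D2:**
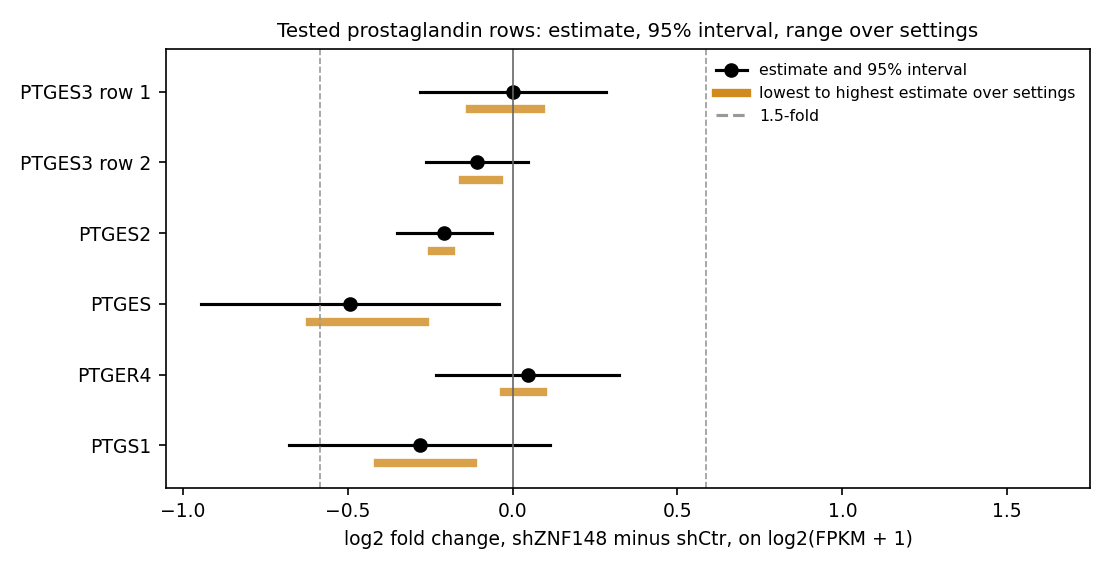
Log2 fold change (shZNF148 minus shCtr, on log2(FPKM + 1)) of the 6 tested prostaglandin rows. Black points and lines are the estimate and its 95% interval, orange bars run from the lowest to the highest estimate over the alternative settings, and dashed lines mark 1.5-fold. The interval of PTGES reaches past 1.5-fold lower, as does that of PTGS1, while those of PTGES2, PTGES3 and PTGER4 stay within 1.5-fold.

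Of the receptors, PTGER4 (chr5:40679915-40693735, plus strand) was expressed in every sample at 2.62, 3.27 and 3.12 FPKM in shCtr replicates 1 to 3 and 3.00, 3.53 and 2.86 FPKM in shZNF148 replicates 1 to 3. The groups overlapped, with means of 3.00 ± 0.341 and 3.13 ± 0.354 FPKM (SD, n = 3, log2 fold change 0.05 ± 0.12 SE, 95% interval -0.23 to 0.32, limma adjusted p = 0.813). The interval excludes a change of 1.5-fold on this scale. The annotated span of PTGER4 overlaps TTC33 on the opposite strand, which was at 1.91 to 4.06 FPKM, and whether counting used strand is not given in the sources used here.

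PTGER2 (chr14:52314305-52328598, plus strand) was lower than PTGER4 in every sample. It was at 0.296, 0.724 and 0.515 FPKM in shCtr replicates 1 to 3 and at 0.262, 0.309 and 0.184 FPKM in shZNF148 replicates 1 to 3. The groups overlapped only because shCtr replicate 1 lay under shZNF148 replicate 2 (means 0.512 ± 0.214 and 0.251 ± 0.0633 FPKM, SD, n = 3, exact two-sided permutation p = 0.2). The shZNF148 mean was 49.1% of control, the lowest share among the prostaglandin genes detected in all samples. After correction for relative depth the values were multiples of 6, 16 and 11 in shCtr and 6, 7 and 3 in shZNF148 of a common step, 33 against 16 in sum. Under a filter of at least 0.1 FPKM (14256 rows) the log2 fold change was -0.26 (95% interval -0.56 to 0.03, limma adjusted p = 0.194). That interval too is on the log2(FPKM + 1) scale, which flattens values this low, and does not limit the ratio of FPKM.

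HPGD, the dehydrogenase that starts prostaglandin breakdown (chr4:174490175-174523154, minus strand), was listed at 0.0468, 0 and 0.0445 FPKM in shCtr replicates 1 to 3. In shZNF148 replicates 1 to 3 it was listed at 0.0777, 0.126 and 0 FPKM. One sample of each group was at 0, and the groups overlapped (exact two-sided permutation p = 0.5). PTGIS, prostacyclin synthase (chr20:49503874-49568137, minus strand), was listed at 0 in all 6 samples. Such a 0 does not show that the transcript was absent: 114 rows of the table exceeded 20 FPKM in some sample while another sample was given as 0, so an estimate may have failed.

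Around these genes, 9 lists of the wider prostanoid and arachidonate pathway held 83 tested rows. Of these 14 (16.9%) were called, 4 higher and 10 lower, beside the 5.49% called over all rows, and their median log2 fold change was -0.12 beside 0.0061 for all rows. An adjusted p under 0.05 alone was reached by 19 (22.9%), beside 13.6%. The lists were drawn up with earlier results of these data known, and IL1A and IL1B, which supply 3 of the 14, had already been seen to fall, so the excess over the table's share was partly fixed by the choice and is no evidence about the pathway. These counts also rest on few samples. Without shCtr replicate 1 or replicate 3 none was called, 5 were called without shCtr replicate 2 or without shZNF148 replicate 1, and 9 without shZNF148 replicate 3. With no filter on low values 9 were called, and ACSL5, PDE4B, ALOX5AP, the AKR1C row and 1 row of IL1A were lost.

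In the release of arachidonate, 2 of 14 tested rows were called lower and none higher. MGLL, the lipase that hydrolyses monoacylglycerols such as 2-arachidonoylglycerol, fell from 19.5, 22.0 and 20.2 FPKM in shCtr to 12.2, 10.6 and 13.1 FPKM in shZNF148 (log2 fold change -0.74, limma adjusted p = 0.0118). ABHD12, a serine hydrolase of lysophospholipids and monoacylglycerols, fell from 68.2, 70.1 and 61.6 to 40.7, 52.6 and 38.8 FPKM (log2 fold change -0.60, limma adjusted p = 0.0303). In neither gene did the groups overlap, which holds for 41.0% of all tested rows. The list's median was -0.06, with 5 rows higher and 9 lower.

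In the list for the making and storing of arachidonate in membranes, 2 of 11 tested rows were called lower and 1 higher. Which fatty acids the listed enzymes use in these cells was not tested. The joined row of the fatty acid desaturases FADS1 and FADS3 was at 108, 107 and 106 FPKM in shCtr and at 63.2, 49.6 and 64.5 FPKM in shZNF148 (log2 fold change -0.85, limma adjusted p = 0.0111). FADS1 makes arachidonate from its precursor, but the row does not separate it from FADS3. LPCAT1, a lysophosphatidylcholine acyltransferase, fell from a mean of 20.5 to 12.8 FPKM (log2 fold change -0.65, limma adjusted p = 0.0305). ACSL5, which activates long-chain fatty acids, rose from 18.7, 21.7 and 19.1 to 30.1, 47.7 and 28.2 FPKM (log2 fold change 0.76, limma adjusted p = 0.0472). That call stood at the threshold: with all samples kept, its adjusted p was 0.0520 under a filter of 0.1 FPKM, 0.0704 with no filter, 0.0512 with a pseudocount of 5 FPKM and 0.0559 without the variance trend. MBOAT7, which returns arachidonate to phosphatidylinositol, passed on adjusted p but not on size (187, 186 and 186 against 143, 125 and 130 FPKM, log2 fold change -0.49, limma adjusted p = 0.0132). LPCAT2, an acyltransferase of lysophospholipids, passed in the same way but in the other direction, at 9.94, 8.84 and 11.2 FPKM in shCtr and at 15.4, 14.2 and 13.4 FPKM in shZNF148 (log2 fold change 0.48, limma adjusted p = 0.0313).

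Of the other synthases and reductases, 1 of 10 tested rows was called higher and none lower. That row joins AKR1C1, AKR1C3 and AKR1C4, of which AKR1C3 can reduce prostaglandin D2 and H2. It was at 32.2, 31.2 and 30.6 FPKM in shCtr and at 68.7, 191 and 69.9 FPKM in shZNF148 (log2 fold change 1.60, limma adjusted p = 0.0402), with shZNF148 replicate 2 far above the others and an estimate of 1.12 without it. The row does not separate these closely related genes. AKR1B1, an aldo-keto reductase with prostaglandin F synthase activity, was at 280.1, 269 and 270.3 against 224, 212 and 207 FPKM, and passed on adjusted p but not on size (log2 fold change -0.35, limma adjusted p = 0.02003). PTGR1, a reductase that inactivates 15-keto prostaglandins and leukotriene B4, did likewise (means 60.1 and 44.3 FPKM, log2 fold change -0.43, limma adjusted p = 0.0447).

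Of 3 tested transporters, SLCO4A1, an organic anion carrier, was called higher, from 2.08, 1.84 and 1.54 to 4.02, 2.86 and 4.17 FPKM (log2 fold change 0.72, limma adjusted p = 0.0311). The prostaglandin transporter itself, SLCO2A1, was at most 0.0256 FPKM. Among the other prostanoid receptors only the thromboxane receptor TBXA2R was tested, and it was not called (1.08, 1.24 and 0.889 against 1.37, 1.30 and 1.16 FPKM, limma adjusted p = 0.481). The prostaglandin F receptor PTGFR ran from 0.135 to 0.372 FPKM, with overlapping groups. In the lipoxygenase branch 1 of 6 tested rows was called, ALOX5AP, which presents arachidonate to 5-lipoxygenase, at 3.19, 3.66 and 4.55 FPKM in shCtr and at 1.84, 0.429 and 1.19 FPKM in shZNF148 (log2 fold change -1.20, limma adjusted p = 0.0328).

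Among 18 tested rows of inducers and regulators of PTGS2, 3 were called lower and none higher, all of them interleukin-1 cytokines. IL1B was at 26.2, 33.0 and 21.0 FPKM in shCtr and at 5.44, 2.80 and 5.40 FPKM in shZNF148 (log2 fold change -2.34, limma adjusted p = 0.00955). One row of IL1A was at 36.6, 42.4 and 38.3 FPKM in shCtr and at 13.4, 8.41 and 14.2 FPKM in shZNF148 (log2 fold change -1.65, limma adjusted p = 0.0103). The other was at 21.8, 26.9 and 19.2 FPKM in shCtr and at 5.70, 0.292 and 4.30 FPKM in shZNF148 (log2 fold change -2.71, limma adjusted p = 0.0331). That estimate rests in part on shZNF148 replicate 2 and was -1.97 without it, and its adjusted p was 0.0531 with no filter and 0.0567 with a pseudocount of 0.1 FPKM. Their receptor IL1R1 was at 5.60, 5.47 and 6.06 against 7.97, 11.6 and 7.52 FPKM and did not pass (log2 fold change 0.56, limma adjusted p = 0.0594). EGR1 passed on adjusted p but not on size on the log2(FPKM + 1) scale (log2 fold change -0.54, limma adjusted p = 0.0447). Its mean went from 5.91 to 3.76 FPKM, 63.7% of control, which is past 1.5-fold as a ratio of FPKM. The NF-kappaB subunits NFKB1 and RELA did not pass (log2 fold changes 0.09 and -0.07), and TNF was listed at 0 in all its rows. Beside these decreases PTGS2 was at 1 to 3 steps in every sample of both groups, so no decrease of it could be read.

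Of 10 tested genes of EP2 and EP4 signalling through cyclic AMP, a list that holds carriers of the signal (GNAS, PRKACA and ARRB1) as well as genes known to respond to it, 2 were called lower and 1 higher. The phosphatase DUSP1 fell from 8.87, 6.45 and 9.25 to 4.03, 4.19 and 4.20 FPKM (log2 fold change -0.82, limma adjusted p = 0.0195). The nuclear receptor NR4A1 fell from 1.83, 1.37 and 1.56 to 0.555, 0.604 and 0.641 FPKM (log2 fold change -0.69, limma adjusted p = 0.0250). The phosphodiesterase PDE4B, which degrades cyclic AMP, rose from 1.19, 1.20 and 1.51 to 2.68, 3.33 and 1.97 FPKM (log2 fold change 0.65, limma adjusted p = 0.0463). Other signals act on these genes too, and the whole list's median log2 fold change was -0.12.

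**Figure D3:**
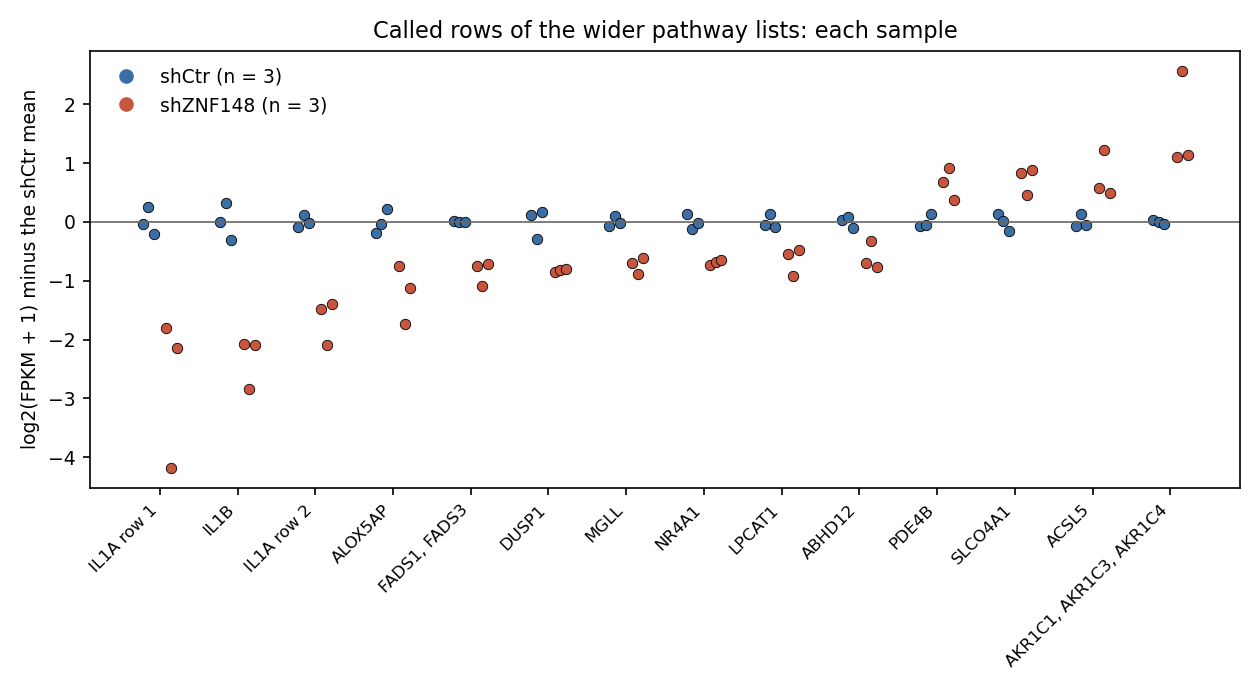
The 14 called rows of the pathway lists in each sample, as log2(FPKM + 1) minus the row's shCtr mean, ordered by fold change. Blue points are the 3 shCtr and red points the 3 shZNF148 samples. The groups are apart in every row, which the calling rule favours and which holds for 41.0% of all tested rows. In IL1A row 1 and the AKR1C row shZNF148 replicate 2 lies far from the other shZNF148 samples.

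Of the HSP90 partners of PTGES3, 0 of 10 tested rows were called by limma, and 0 passed on adjusted p alone. All 10 estimates were below 0, with a median of -0.18, beside 0.0061 for all tested rows. For the 6 markers of the line given above the median was -0.26. HSP90AB1, the constitutive HSP90, was at 869, 912 and 876 FPKM in shCtr and at 800.1, 743 and 822 FPKM in shZNF148 (log2 fold change -0.17, limma adjusted p = 0.125). HSPA8, the constitutive HSP70, was at 799, 861 and 862 FPKM in shCtr and at 804, 627 and 764 FPKM in shZNF148 (log2 fold change -0.21, limma adjusted p = 0.206).

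The tested rows whose pattern over the 6 samples was most like that of PTGS2 were DHX30, YWHAE, CLINT1, UBE2D3 and PPP2R5D, with root mean square differences of 0.016 to 0.021 in centred log2(FPKM + 1). PTGS2 spans only 0.07 log2 units on that scale, so the measure picks rows that hardly vary.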

How the data were processed

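Samples were assigned from GEO's labels. The deposited data are 1 table of FPKM values made by the authors, 1 column per sample and no coordinates, of which 0 columns were left unused. The submitters' processing notes name bcl2fastq 2.17.1.14, TopHat2 2.0.14, Cufflinks 2.2.1, Cuffnorm 2.2.1 and the builds hg18 and hg19 without their roles, whereas the study's methods describe Salmon on GRCh38 with DESeq2 for expression tests. Counts were not used here, total depth is unknown, and only relative depth could be read, from whole steps shared by rows under 0.5 FPKM. Of 24108 rows 7115 were 0 in all samples. The 11777 rows averaging 1 FPKM or more were tested on log2(FPKM + 1) in R 4.3.3 by limma 3.58.1, with the group as the only term. Its eBayes step used a trend of variance on mean, and Benjamini-Hochberg adjustment ran over all rows tested. A fold change on this scale understates that of low genes. Single values were compared by exact permutation tests. The limma fit and the calling rule were tested on simulated data, but the permutation tests and the reading of relative depth were not.

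The prostaglandin genes and the pathway lists were chosen with earlier results of these data known. Besides the 10 genes and ZNF148, the text names each called row of a pathway list, or its 2 rows with the highest mean where none was called. GATA3, EPCAM, DCN, LUM, VIM, CD44 and the other marker genes come from marker lists, and SLCO2A1, IL1R1, NFKB1, RELA, TNF, GNAS, PRKACA, ARRB1, TTC33, AKR1B1, PTGR1, MBOAT7, LPCAT2 and EGR1 were named after their values were seen. PTGS2 and called prostaglandin genes were to be matched to the 5 rows with the most similar pattern. Gene positions are those of GENCODE release 44 on GRCh38 and promoters those of RefSeq on GRCh38.p14. Of the 10 genes 9 had a promoter entry there. Alternatives covered the filter, the pseudocount, the scaling, a replicate block, the variance model, sample weights, rows of one symbol summed and each sample left out. Python 3.11.15 with numpy 2.4.6 and pandas 2.3.3 made the other tables, and matplotlib 3.10.9 the figures.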

Additional observations from a re-analysis of the deposited data

How the results depend on the processing

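The count of prostaglandin genes called was 0 under every alternative run. PTGES2 passed on adjusted p with array weights (log2 fold change -0.20, adjusted p = 0.0316). The first PTGES3 row, at 0.0018, turned to -0.0013 with median-ratio scaling, to -0.028 with array weights and to -0.040 with its 2 rows summed, and ranged from -0.129 to 0.087 with single samples left out. PTGER4 ranged from -0.026 to 0.094 with single samples left out. PTGS1, PTGES, PTGES2 and the second PTGES3 row stayed negative in every alternative run, PTGS1 between -0.41 and -0.12 and PTGES between -0.61 and -0.26.

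The 14 called pathway rows rose to 15 with a pseudocount of 0.1 FPKM and with array weights. They dropped to 9 with no filter beyond a value above 0 and to 6 with a pseudocount of 5 FPKM. With single samples left out the number ranged from 0 to 13. All 14 kept their direction in all 223 alternative values and passed on adjusted p in 153. Over all rows, 647 calls rose to 762 with a pseudocount of 0.1 FPKM and to 740 with array weights. They dropped to 280 with a pseudocount of 5 FPKM and ranged from 22 to 566 with single samples left out. ZNF148 ranged from -1.74 to -1.45 without single samples. Fits with a sample left out also rest on fewer samples, and the cause of these moves was not tested.

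Over all tested rows, deviations of same-numbered samples correlated at 0.0010, -0.09 and 0.03, so the replicate numbers showed no general pairing. Such values cannot exclude pairing in some rows, and the ERBB2 row given above was high in replicate 2 of both groups. With the replicate number as a block, 6 pathway rows and 315 of all rows were called. The 6 were all among the 14 and all lower (ABHD12, MGLL, the FADS1 row, 1 IL1A row, IL1B and DUSP1). The 4 higher calls were lost (adjusted p = 0.0535 for ACSL5, 0.0621 for the AKR1C row, 0.0666 for SLCO4A1 and 0.0990 for PDE4B), as were ALOX5AP, LPCAT1, NR4A1 and the other IL1A row, and ZNF148 kept its call (adjusted p = 0.0415). The filter, the variance model, the sample weights, the block and the summing of rows do not bear on the summed cyclooxygenase value, which was -0.41 to -0.12 in the alternatives run. Low values are limited by depth: PTGS2 and PLA2G4A rest on at most 3 steps in a sample, and no common step could be read for HPGD.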
